A study of Mus musculus with 8 samples.

Results

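The 2-cell-like state genes are a set of 10 mouse genes that are switched on in the embryo when its own genome is first activated and, in cultured embryonic stem (ES) cells, in a small and changing fraction of the cells. They are Zscan4c, Zscan4d, Zscan4f, Tcstv1, Tcstv3, Zfp352, Tmem92, Usp17la, Gm5662 and Arg2, chosen by name. No measured value entered the rule, though earlier results of these data were known when the names were chosen. The files hold RefSeq transcript rows for 22963 genes, among them 9 of the 10 members. The other, Usp17la, appears only in the deposited gene table.

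The study measured RNA in Bruce 4 cells, a male C57BL/6J mouse ES cell line, by RNA-seq. The cells had been kept for 2 weeks on dishes coated with LN511 (laminin-511, a basement membrane protein) or with gelatin, in 2i or in Std medium. The 4 groups were LN511 with 2i, gelatin with 2i, LN511 with Std and gelatin with Std, with 2 libraries each, 8 in all, which the design text calls biological replicates. 2i medium is known in the field for its inhibitors of MEK and of GSK3. What the Std medium contained is not given in the labels. All groups came from 1 wild-type line, so they show how these cells responded and not how other ES lines would. The sample titles spell the coating LM511 and the culture labels LN511, the spelling kept here.

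In the mouse, the embryo switches on its genome at the 2-cell stage, when the transcription factor Dux and the MERVL family of endogenous retroviruses are active. A few cells in an ES culture pass through a similar state, in which Zscan4, a zinc finger and SCAN domain protein tied to telomere lengthening and genome stability, is made together with Tcstv, Usp17l and eIF1A-like genes. Chromatin repressors such as the KAP1, LSD1 and chromatin assembly complexes hold the state down in most cells. In bulk RNA a lower value can come from fewer cells in the state or from less RNA in each such cell, and these cannot be told apart here.

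Several of the genes belong to clusters of near-identical copies, so that reads from one copy can be counted on another. Zscan4c (chr7:11005745-11010547), Zscan4d (chr7:11161643-11166148) and Zscan4f (chr7:11397915-11402318, all GRCm38, GENCODE M21) lie in 1 cluster. The stretches below run across the transcript start of each of these 3 copies and show how little separates them. They are given 5′ to 3′ on the strand of the gene, from the RefSeq promoter table for GRCm38.p6, at chr7:11005506-11005771 (plus strand), chr7:11166133-11166398 (minus strand) and chr7:11397699-11397964 (plus strand). Capitals mark the 8 of 266 positions at which the 3 copies are not all alike.
Zscan4c: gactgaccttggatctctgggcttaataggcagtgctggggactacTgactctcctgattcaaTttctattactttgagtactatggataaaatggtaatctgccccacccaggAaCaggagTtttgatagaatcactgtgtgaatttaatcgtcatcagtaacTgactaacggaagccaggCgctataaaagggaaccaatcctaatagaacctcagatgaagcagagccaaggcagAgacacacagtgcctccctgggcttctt
Zscan4d: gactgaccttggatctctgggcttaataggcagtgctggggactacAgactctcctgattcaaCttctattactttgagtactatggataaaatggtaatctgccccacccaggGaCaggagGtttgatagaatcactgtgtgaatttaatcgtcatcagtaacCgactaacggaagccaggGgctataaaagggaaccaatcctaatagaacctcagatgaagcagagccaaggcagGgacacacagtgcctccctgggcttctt
Zscan4f: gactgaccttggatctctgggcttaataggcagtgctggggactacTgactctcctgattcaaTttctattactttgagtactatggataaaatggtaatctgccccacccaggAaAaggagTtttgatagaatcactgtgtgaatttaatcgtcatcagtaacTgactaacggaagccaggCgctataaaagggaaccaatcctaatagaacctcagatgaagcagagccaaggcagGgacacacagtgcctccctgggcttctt
Zscan4c and Zscan4f were 99.2% identical over this stretch, Zscan4c and Zscan4d 97.4%, and Zscan4d and Zscan4f also 97.4%. The letters TATAAAA, which the general factor TBP binds in core promoters, were present in all 3 stretches, against 5.48% of the 32851 promoters in the table when both strands were searched. As the 3 stretches are near-identical copies, they are not 3 separate observations, and no enrichment is read from this.

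The transcripts shared sequence too. Among all windows of 50 bases in its GENCODE transcript, Zscan4f shared 95.3% with another gene, Zscan4c 85.5% and Zscan4d 49.6%. The gene that shared most with Zscan4f (84.7%) and Zscan4c (71.3%) was the pseudogene Zscan4-ps2, which had no matched row. For Gm5662, an eIF1A-like gene on chromosome 12 (chr12:88270635-88274497), the share was 77.9%, mostly with Gm2016 on the same chromosome. The Tcstv genes on chromosome 13 shared less, with 25.3% for Tcstv1 (chr13:119893387-119894785) and 31.4% for Tcstv3 (chr13:120316862-120318261). Zfp352 on chromosome 4 shared 7.10%, the 2 transcripts of Tmem92 on chromosome 11 shared 2.01% and 3.10%, and Arg2 on chromosome 12 shared none. Values of single copies in the Zscan4 and eIF1A-like clusters are therefore uncertain. Each family is also given as the sum of its copies, which depends less on how reads were split among them. Some dependence remains, since FPKM divides by transcript length and the Zscan4 copies run from 1754 bases (Zscan4b) to 2279 bases (Zscan4a). The sum can also depend on reads shared with copies that had no matched row, such as Zscan4-ps2.

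Values are FPKM, fragment numbers scaled to transcript length and to library size. This scaling allows genes to be compared, but not copies that share reads, whose split is uncertain. Depth is not stated in the files. From the smallest steps between low values, the libraries differed by at most 1.19-fold in depth, and 1 fragment on a transcript of 2000 bases was estimated to be worth 0.193 to 0.230 FPKM, so a value of 1 FPKM rests on few fragments. The cells matched their label: the 7 ES cell markers summed to 1526 to 2389 FPKM, with Pou5f1, the core pluripotency factor, at 949 to 1245 FPKM. Marker sums of other cells were low, at 0.868 to 4.54 FPKM for 6 primitive endoderm genes, 9.72 to 27.7 FPKM for 6 trophoblast genes and 0.452 to 5.57 FPKM for 7 fibroblast genes, of which Postn and Lum were at 0 in every library.

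Zscan4 RNA was highest on LN511 in 2i and, on gelatin, was lower in 2i than in Std, so the medium went with opposite changes on the 2 coatings. The sum of the 5 Zscan4 copies with rows (Zscan4a, Zscan4b, Zscan4c, Zscan4d and Zscan4f) was 18.9 and 21.8 FPKM on LN511 in 2i, 8.48 and 8.39 FPKM on gelatin in 2i, 8.41 and 6.25 FPKM on LN511 in Std, and 15.1 and 14.9 FPKM on gelatin in Std. The LN511 2i libraries were above all others, the gelatin Std libraries came next, and the other 2 groups lay together below 9 FPKM. Group means were 20.4 ± 2.05 FPKM on LN511 in 2i, 8.43 ± 0.06 FPKM on gelatin in 2i, 7.33 ± 1.53 FPKM on LN511 in Std and 15.0 ± 0.18 FPKM on gelatin in Std (SD, n = 2 each). Gelatin with 2i and LN511 with Std were the only neighbours in this order whose difference was smaller than the spread of the LN511 Std libraries.

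On LN511 the Zscan4 sum rose 2.78-fold in 2i relative to Std, a difference of 1.37 in log2(FPKM + 1) (SE 0.19, adjusted p = 0.00457, limma), and it was higher in both 2i libraries. On gelatin it fell in 2i, with a ratio of 0.562 to Std and a log2 difference of -0.76 (SE 0.19, adjusted p = 0.0386, limma). A fit that leaves out 1 library holds n = 1 in that group and has less power. A lost call in such a fit alone does not show that a result rests on that library. The fall on gelatin was called in 2 of the 8 fits that left out 1 library, those without LN511 Std replicate 1 or 2. Without 1 of the other 6 libraries, its log2 difference was between -0.78 and -0.75 and its adjusted p between 0.0518 and 0.139 (limma). The difference between the 2 medium effects was 2.13 on the log2 scale (SE 0.27, adjusted p = 0.0497, limma), just inside the threshold of 0.05. It lost the call in every one of the 8 fits without 1 library, where the difference was 1.94 to 2.32 and the adjusted p 0.0958 to 0.173 (limma).

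Between the coatings, the Zscan4 sum on LN511 was 2.42 times that on gelatin in 2i and 0.488 times that on gelatin in Std. Neither difference passed the test across all genes, with a log2 difference of 1.18 (SE 0.19) and adjusted p = 0.0955 in 2i, and -0.96 (SE 0.19) and adjusted p = 0.0609 in Std (limma). Averaged over both coatings, the medium left a log2 difference of 0.30 (adjusted p = 0.140, limma), as the opposite effects cancel in such a mean. The fragments behind these sums were few. The estimate was 90.4 and 101 fragments on LN511 in 2i, with 95% Poisson intervals of 72.4 to 111 and 82.3 to 123, against 42.8 and 32.8 fragments on LN511 in Std, with intervals of 31.1 to 57.9 and 22.7 to 46.3. On gelatin it was 40.5 and 44.9 fragments in 2i (28.6 to 54.5 and 32.8 to 60.2), against 65.4 and 67.6 fragments in Std (50.2 to 82.8 and 52.8 to 86.2). On LN511 the intervals of the 2 media lay apart, while on gelatin they overlapped. These intervals cover counting error only.

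**Figure D1:**
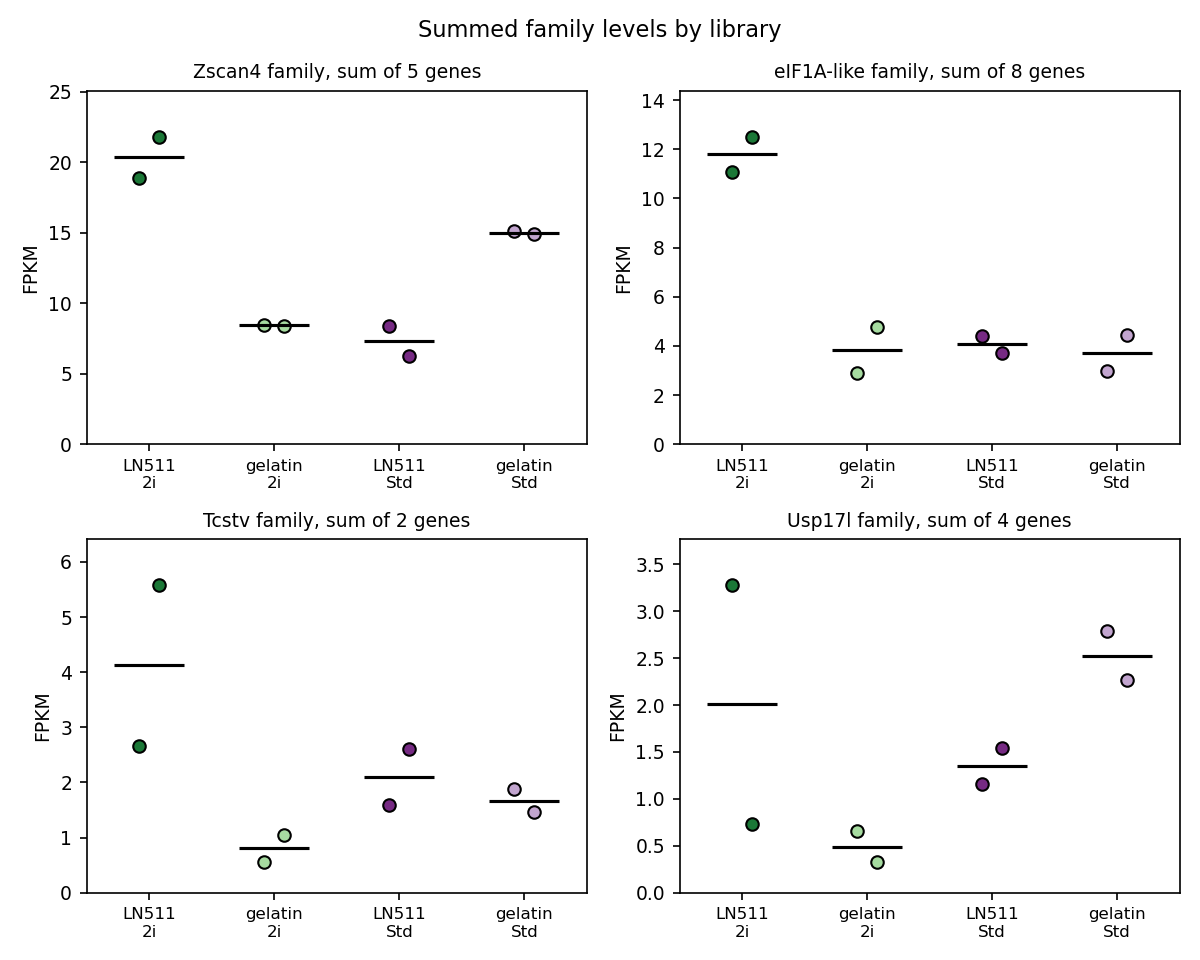
Summed FPKM of the 4 gene families in each library, by coating and medium; points are the 2 libraries of a group and bars their mean. The Zscan4 and eIF1A-like sums are highest on LN511 in 2i, and the Zscan4 sum also stands at 15.0 FPKM on gelatin in Std, where the eIF1A-like sum stays at 3.70 FPKM.

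The plot of family sums shows the 2 libraries of each group beside each other. Within the Zscan4 family, Zscan4c and Zscan4f carried the pattern most evenly. Zscan4c was 6.30 and 3.70 FPKM on LN511 in 2i, 1.88 and 2.03 FPKM on gelatin in 2i, 1.77 and 1.26 FPKM on LN511 in Std, and 3.59 and 2.80 FPKM on gelatin in Std. Both LN511 2i libraries lay above every other library, and both gelatin Std libraries above those of the remaining groups. The gap between the top 2 groups was narrow, at an estimated 19.2 fragments in LN511 2i replicate 2 against 18.0 in gelatin Std replicate 1. Zscan4c rose in 2i on LN511, by 1.23 on the log2 scale (SE 0.31, adjusted p = 0.0377, limma), and on gelatin its log2 difference was -0.50 (SE 0.31, adjusted p = 0.340, limma). The rise on LN511 kept its call in 1 of the 8 fits without 1 library, the one without LN511 2i replicate 2. Leaving out any other library gave a log2 difference of 0.91 to 1.38 and an adjusted p of 0.0556 to 0.164 (limma).

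Zscan4f was 5.39 and 6.68 FPKM on LN511 in 2i, 2.23 and 3.93 FPKM on gelatin in 2i, 3.20 and 1.44 FPKM on LN511 in Std, and 4.93 and 5.41 FPKM on gelatin in Std. The 2 media did not overlap on either coating, with 2i above Std on LN511 and below it on gelatin, but LN511 with 2i and gelatin with Std did overlap in part: 1 of the 2 LN511 2i libraries lay below the higher gelatin Std library. Its log2 difference was 1.13 on LN511 (SE 0.36, adjusted p = 0.0728, limma) and -0.63 on gelatin (SE 0.36, adjusted p = 0.295, limma), neither past the threshold. The test of the difference between these 2 effects gave 1.76 for Zscan4f (adjusted p = 0.252, limma) and 1.72 for Zscan4c (adjusted p = 0.210, limma).

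Zscan4d, the main copy in mouse 2-cell embryos, was listed at 0 and 4.15 FPKM on LN511 in 2i, 0 and 1.46 FPKM on gelatin in 2i, 0.88 and 0.33 FPKM on LN511 in Std, and 2.45 and 0 FPKM on gelatin in Std. One library of each of 3 groups was thus at 0 beside a partner above 1 FPKM, so its groups overlap and its SE of 0.92 was the widest among the 7 members tested. The copies that are no members showed the same unevenness. Zscan4a, annotated as a transcribed pseudogene, was 4.49 and 3.49 FPKM on LN511 in 2i, 1.38 and 0.96 FPKM on gelatin in 2i, 0.81 and 1.34 FPKM on LN511 in Std, and 0 and 2.25 FPKM on gelatin in Std. Zscan4b was 2.76 and 3.81 FPKM on LN511 in 2i, 2.99 and 0 FPKM on gelatin in 2i, 1.75 and 1.88 FPKM on LN511 in Std, and 4.19 and 4.44 FPKM on gelatin in Std. Zscan4f made up 46.9% of the sum in gelatin 2i replicate 2, where Zscan4b is at 0, and 26.3% in gelatin 2i replicate 1.

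**Figure D2:**
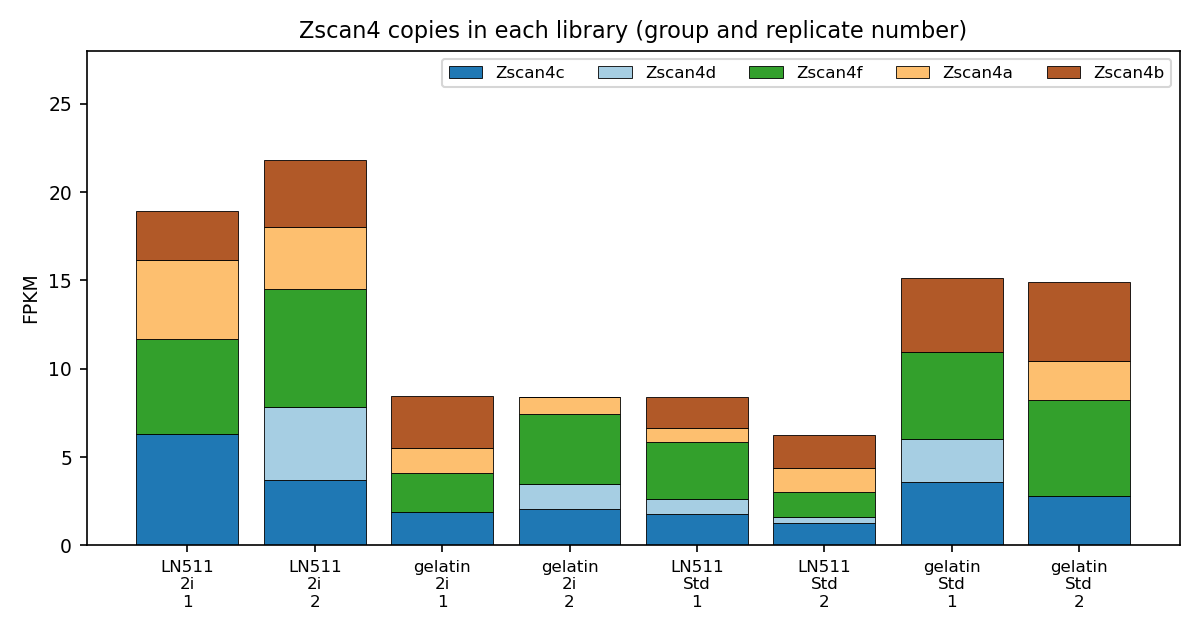
FPKM of the 5 Zscan4 copies stacked in each of the 8 libraries, named by coating, medium and replicate number. On gelatin the 2 stacks of a group reach nearly the same height while the split among copies differs. On LN511 the heights are 18.9 and 21.8 FPKM in 2i and 8.41 and 6.25 FPKM in Std. Zscan4d is at 0 and 4.15 FPKM in the 2 LN511 2i libraries.

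In the stacked plot the 2 gelatin 2i libraries reach nearly the same height, 8.48 and 8.39 FPKM, from different copies. The same holds for the 2 gelatin Std libraries, of which 1 has Zscan4d and no Zscan4a and the other Zscan4a and no Zscan4d.

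Gm5662, the eIF1A-like member, was 3.03 and 4.71 FPKM on LN511 in 2i, 1.12 and 1.81 FPKM on gelatin in 2i, 1.29 and 0.62 FPKM on LN511 in Std, and 0.82 and 0.87 FPKM on gelatin in Std. The LN511 2i libraries were the only ones above 2 FPKM, and unlike Zscan4c and Zscan4f the gene was not lower on gelatin in 2i than on gelatin in Std. It rose in 2i on LN511, by 1.31 on the log2 scale (SE 0.33, adjusted p = 0.0355, limma), and over both coatings together, by 0.86 (SE 0.23, adjusted p = 0.0327, limma). The rise on LN511 passed the threshold in none of the 8 fits without 1 library, with a log2 difference of 1.06 to 1.57 and an adjusted p of 0.05004 to 0.167 (limma). The rise over both coatings kept its call without LN511 2i replicate 1 or LN511 Std replicate 1 and lost it without any 1 of the other 6 libraries, at a log2 difference of 0.73 to 0.96 and an adjusted p of 0.0506 to 0.0976 (limma). On gelatin alone its log2 difference was 0.41 (adjusted p = 0.463, limma).

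The sum of the 8 eIF1A-like genes with rows behaved like Gm5662, though not every copy did. Gm2022 and Gm4027 had their highest group means on LN511 in 2i, at 0.85 and 1.01 FPKM. Gm5039 was at 0 in both LN511 2i libraries, with means of 0.82 FPKM on LN511 in Std and 0.84 FPKM on gelatin in Std. BB287469 averaged 0.57 FPKM on gelatin in Std against 0.27 FPKM on LN511 in 2i, and Gm4850 was at 0 in every library. The sum averaged 11.8 ± 1.02 FPKM on LN511 in 2i, 3.83 ± 1.34 FPKM on gelatin in 2i, 4.07 ± 0.48 FPKM on LN511 in Std and 3.70 ± 1.04 FPKM on gelatin in Std (SD, n = 2 each). LN511 with 2i stood apart and the other 3 groups did not differ beyond their spread. The family rose 2.90-fold in 2i on LN511 (log2 difference 1.34, SE 0.29, adjusted p = 0.0239, limma), while on gelatin the ratio was 1.03 (log2 difference 0.03, SE 0.29, adjusted p = 0.967, limma). Leaving out any 1 of the 4 LN511 libraries removed the call on LN511, at a log2 difference of 1.24 to 1.44 and an adjusted p of 0.0685 to 0.111 (limma). Over both coatings the log2 difference was 0.68 (SE 0.21, adjusted p = 0.0491, limma), and of the 8 fits without 1 library only that without gelatin 2i replicate 1 kept this call, while the others gave 0.54 to 0.80 (adjusted p 0.0559 to 0.127, limma). The 2 medium effects differed by 1.31 on the log2 scale, which did not pass the test (SE 0.41, adjusted p = 0.285, limma).

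Besides Gm5662, 2 eIF1A-like genes on the list of other 2-cell-like genes passed the test for 2i on LN511. Both reached 1 FPKM in the LN511 2i libraries alone and so entered the test only through the group where they are high, so their values describe the pattern and do not support it. Gm2016 was 3.62 and 3.43 FPKM on LN511 in 2i, 0.46 and 0.97 FPKM on gelatin in 2i, 0.93 and 0.76 FPKM on LN511 in Std, and 0.60 and 0.54 FPKM on gelatin in Std, a log2 difference of 1.29 on LN511 (SE 0.27, adjusted p = 0.0200, limma). Gm8300 was 1.88 and 2.67 FPKM on LN511 in 2i, 0 and 0.57 FPKM on gelatin in 2i, 0.21 and 0.02 FPKM on LN511 in Std, and 0.99 and 0.12 FPKM on gelatin in Std, a log2 difference of 1.55 on LN511 (SE 0.39, adjusted p = 0.0374, limma). For both genes the LN511 2i libraries lay above the 6 others, and for both the call was lost without either LN511 Std library, at an adjusted p of 0.0782 and 0.0969 for Gm2016 and of 0.114 and 0.158 for Gm8300 (limma). Without either LN511 2i library both genes left the test, since only 1 library then reached 1 FPKM.

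**Figure D3:**
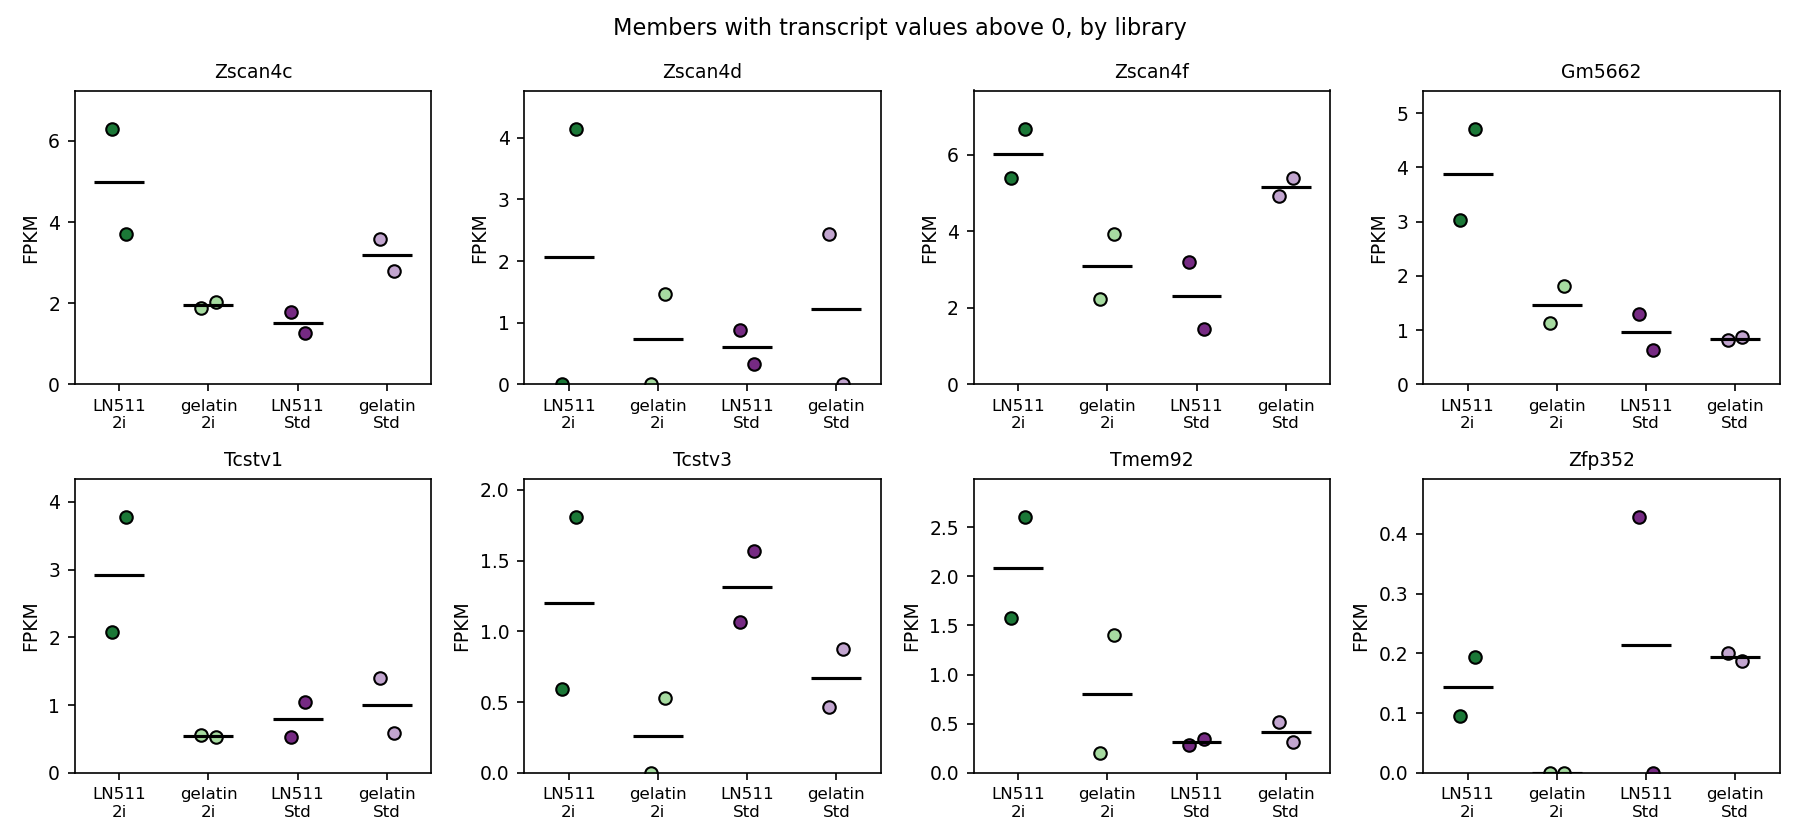
FPKM in each library of the 8 members with a value above 0, by coating and medium; points are the 2 libraries of a group, bars their mean, and each panel has its own axis. Zscan4c, Gm5662, Tcstv1 and Tmem92 have both LN511 2i libraries above all others, for Zscan4c by a narrow gap (3.70 against 3.59 FPKM). Zfp352 stays below 0.5 FPKM everywhere.

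The panels by member set the Zscan4 copies and Gm5662 beside the less abundant genes. Tcstv1, whose protein is named for the 2-cell stage and has been linked with telomere lengthening in mouse ES cells, was 2.07 and 3.77 FPKM on LN511 in 2i, 0.56 and 0.53 FPKM on gelatin in 2i, 0.53 and 1.05 FPKM on LN511 in Std, and 1.41 and 0.58 FPKM on gelatin in Std. Both LN511 2i libraries were above all others, and the other 3 groups overlapped or nearly so. Its log2 difference between 2i and Std on LN511 was 1.11 (SE 0.35, adjusted p = 0.0758, limma), and that between LN511 and gelatin in 2i was 1.31 (SE 0.35, adjusted p = 0.254, limma). These values rest on an estimated 3.48 and 6.22 fragments on LN511 in 2i and on no more than 2.24 fragments in any other library.

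Tcstv3, on the same chromosome, was 0.59 and 1.81 FPKM on LN511 in 2i, 0 and 0.53 FPKM on gelatin in 2i, 1.06 and 1.57 FPKM on LN511 in Std, and 0.47 and 0.87 FPKM on gelatin in Std. On LN511 the libraries of the 2 media overlapped, so that Tcstv3 did not share the order seen for Tcstv1. Its log2 difference on LN511 was -0.12 (SE 0.39, adjusted p = 0.865, limma). The sum of both Tcstv genes averaged 4.12 ± 2.06 FPKM on LN511 in 2i, 0.81 ± 0.35 FPKM on gelatin in 2i, 2.11 ± 0.72 FPKM on LN511 in Std and 1.67 ± 0.29 FPKM on gelatin in Std (SD, n = 2 each). It did not pass the test in any comparison. On LN511 the log2 difference between 2i and Std was 0.68 (SE 0.38, adjusted p = 0.265, limma).

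Tmem92, a transmembrane protein gene used as a reporter of this state in mouse ES cells (chr11:94777217-94782703), was 1.58 and 2.60 FPKM on LN511 in 2i, 0.20 and 1.40 FPKM on gelatin in 2i, 0.29 and 0.35 FPKM on LN511 in Std, and 0.52 and 0.31 FPKM on gelatin in Std. Both LN511 2i libraries lay above all other libraries, while on gelatin the 2i libraries lay on either side of the Std libraries. Its log2 difference was 1.21 on LN511 (SE 0.39, adjusted p = 0.0766, limma) and 0.27 on gelatin (SE 0.39, adjusted p = 0.703, limma). Tmem92 shares few sequence windows with other genes, so its value depends less on the split among copies than those of the families.

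Zfp352, a zinc finger gene that Dux binds in mouse cells (chr4:90218820-90225687), was near the level of a single fragment. It was 0.09 and 0.19 FPKM on LN511 in 2i, 0 in both libraries on gelatin in 2i, 0.43 and 0 FPKM on LN511 in Std, and 0.20 and 0.19 FPKM on gelatin in Std, which corresponds to at most 2.52 fragments in a library. No difference between groups was detectable at this depth, and the gene did not reach the level needed for the test. Arg2 (chr12:79130788-79156301), the mitochondrial arginase, was listed at 0 in all 8 libraries in both the transcript and the gene table. Sae1, a SUMO pathway enzyme that cells use broadly, was also listed at 0 in every library, so a 0 here is not read as absence.

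Usp17la, a ubiquitin-specific protease gene on chromosome 7 (chr7:104857016-104862667), had no matched transcript row. The deposited gene table lists it at 0.120 and 0.325 FPKM on LN511 in 2i, 0 and 0.284 FPKM on gelatin in 2i, 0.144 and 0 FPKM on LN511 in Std, and 0.715 and 0.630 FPKM on gelatin in Std. That table lists many expressed genes at 0, so its zeros are not read as absence, and no test was made on these values. The gelatin Std libraries were the highest in this list. The sum of the 4 other Usp17l genes (Usp17lb, Usp17lc, Usp17ld and Usp17le) was 3.28 and 0.74 FPKM on LN511 in 2i, 0.66 and 0.32 FPKM on gelatin in 2i, 1.16 and 1.54 FPKM on LN511 in Std, and 2.79 and 2.27 FPKM on gelatin in Std. The 2 LN511 2i libraries lay on either side of both LN511 Std libraries, and on gelatin both 2i libraries were below both Std libraries. On gelatin the ratio of 2i to Std was 0.194 and the log2 difference -1.25 (SE 0.44, adjusted p = 0.113, limma). It passed the threshold without LN511 2i replicate 1 (adjusted p = 0.0408, limma) or replicate 2 (adjusted p = 0.0397, limma).

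**Figure D4:**
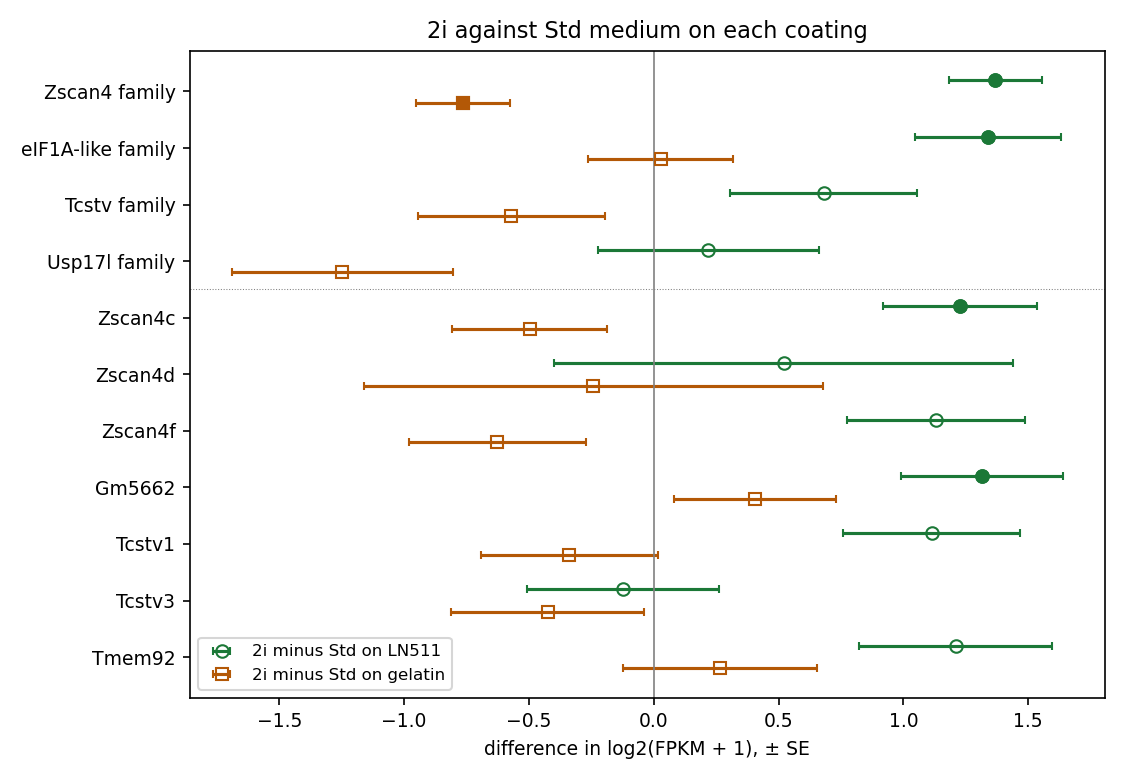
Difference in log2(FPKM + 1) between 2i and Std medium, with its SE from limma, for the 4 family sums and the 7 members tested; circles are LN511, squares gelatin, and filled symbols have an adjusted p under 0.05. Of the symbols on LN511, the Zscan4 and eIF1A-like sums, Zscan4c and Gm5662 are filled, and on gelatin the Zscan4 sum alone, at -0.76.

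The plot of medium differences brings these tests together. Of the 10 members, 7 reached 1 FPKM in at least 2 libraries and were tested (all but Zfp352, Usp17la and Arg2), among 10278 genes. For 2i against Std on LN511, 2 members rose and 0 fell, where 18.5% of all genes tested passed in either direction, 8.58% being higher and 9.95% lower. The median log2 difference of the members was 1.13, against -0.04 over all genes tested, and 5 of the 7 had an unadjusted p under 0.05. The share of all genes at an unadjusted p under 0.05 was not taken. The counts of members at that level therefore have no background beside them. For 2i against Std on gelatin, 0 of 7 members passed with limma (0 at an unadjusted p under 0.05), where 15.4% of all genes passed, 8.2% higher and 7.2% lower, and the members' median was -0.34 against 0.00. Over both coatings 1 member rose, where 27.9% of all genes passed, 13.6% higher and 14.3% lower, with medians of 0.36 and -0.02.

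Between the coatings no member passed the test with limma. For LN511 against gelatin in 2i, 0.0195% of all genes passed, and the members' median log2 difference was 0.84 against 0.00 over all genes, with 3 of 7 members at an unadjusted p under 0.05. Member counts at an unadjusted p are not comparable with these shares of all genes, which are at an adjusted p under 0.05. For LN511 against gelatin in Std, 2.1% of all genes passed, and the medians were -0.14 and 0.05, with 2 members at an unadjusted p under 0.05. Over both media 1.18% passed, and the medians were 0.37 and 0.03, with 0 members at an unadjusted p under 0.05. For the difference between the 2 medium effects, 0.185% of all genes passed (0.0486% higher), the members' median was 0.94 against -0.04, and 3 members had an unadjusted p under 0.05. The members that passed the filter are those with enough RNA in some group, and copies of 1 family share reads, so these medians describe 7 rows and not 7 separate readings. The comparisons also share groups with each other: the LN511 2i libraries enter both the medium comparison on LN511 and the coating comparison in 2i.

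Other genes of the pathway were read from lists chosen by name. Of 42 other 2-cell-like genes 28 had rows and 7 were tested, among them Gm20767 and B020031M17Rik, for which the files give no role. The rest of those tested were Zscan4a, Zscan4b, Gm2016, Gm8300 and Usp17le. They are copies from the members' own families, so this list is not a separate set of genes. In 2i against Std on LN511, 2 rose (Gm2016 and Gm8300) and 0 fell, with a median log2 difference of 1.21 against -0.04 over all genes, of which 18.5% passed. Both entered the test only through the LN511 2i libraries, so the filter shapes this count and median, and neither is read as support. On gelatin 0 of 7 passed with limma, and the median was -0.43 against 0.00. Gm20767 was 4.38 and 4.26 FPKM on LN511 in 2i, 1.38 and 0 FPKM on gelatin in 2i, 1.74 and 0.92 FPKM on LN511 in Std, and 2.04 and 1.91 FPKM on gelatin in Std, which sets the LN511 2i libraries above all others, without a call (log2 difference on LN511 1.21, adjusted p = 0.106, limma). B020031M17Rik was 2.76 and 7.44 FPKM on LN511 in 2i, 0.52 and 0.98 FPKM on gelatin in 2i, 1.98 and 1.22 FPKM on LN511 in Std, and 1.16 and 2.18 FPKM on gelatin in Std, again with the LN511 2i libraries at the top and no call (log2 difference on LN511 1.13, adjusted p = 0.137, limma). The 5 Tdpoz genes, Spz1, Lmx1a and the other untested genes of the list did not reach 1 FPKM in 2 libraries.

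Of 7 activators of the state, 5 were tested, and Dux itself had no row. Trp53, which encodes p53, an activator of Dux after DNA damage, rose in 2i on both coatings, to 242 and 267 FPKM in 2i on LN511, against 207 and 209 FPKM in Std on LN511 (log2 difference 0.29, SE 0.07, adjusted p = 0.0408, limma). On gelatin it was 210 and 218 FPKM in 2i, against 163 and 157 FPKM in Std (log2 difference 0.41, SE 0.07, adjusted p = 0.0140, limma). Dppa4, which with Dppa2 switches on Dux, fell in 2i on LN511, to 72.3 and 71.4 FPKM, against 98.4 and 113 FPKM in Std (log2 difference -0.55, SE 0.12, adjusted p = 0.0211, limma). Gata2, a GATA factor that can drive MERVL, rose in 2i on gelatin, to 2.43 and 1.49 FPKM, against 0.14 and 0.06 FPKM in Std (log2 difference 1.41, SE 0.28, adjusted p = 0.0208, limma). Several of these calls were lost in fits without 1 library, which have less power. Trp53 on LN511 kept its call only without LN511 2i replicate 1. On gelatin it lost the call without any 1 of the 4 gelatin libraries. The log2 difference of Trp53 in these fits was 0.21 to 0.36 on LN511 and 0.39 to 0.44 on gelatin. Dppa4 lost its call without either LN511 2i library or LN511 Std replicate 2, at -0.65 to -0.45 over all such fits. Gata2 lost its call without gelatin 2i replicate 1 or either gelatin Std library, at 1.18 to 1.64 over all such fits. Dppa2 and Nelfa passed in neither medium comparison. The counts were 1 up and 1 down of 5 on LN511, where 18.5% of all genes passed, and 2 up and 0 down of 5 on gelatin, where 15.4% passed.

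Of 32 repressors of the state, 31 had rows and 27 were tested. In 2i, 4 rose and 2 fell on LN511, where 18.5% of all genes passed, and 4 rose and 4 fell on gelatin, where 15.4% passed, with medians of 0.01 and -0.01 against -0.04 and 0.00 over all genes. Zfp42, the zinc finger protein Rex1 that binds endogenous retroviruses and is a standard marker of the naive state, was 71.5 and 59.5 FPKM in 2i against 16.98 and 20.2 FPKM in Std on LN511 (log2 difference 1.76, SE 0.17, adjusted p = 0.00115, limma), and 48.0 and 54.6 FPKM in 2i against 17.4 and 22.0 FPKM in Std on gelatin (log2 difference 1.34, SE 0.17, adjusted p = 0.00405, limma). Uhrf1, which brings DNA methylation maintenance to replicated DNA, rose by 1.09 on LN511 (adjusted p = 0.00120) and by 0.93 on gelatin (adjusted p = 0.00289, limma). Lin28a, an RNA-binding protein that holds Dux down through the nucleolus in mouse ES cells, fell in 2i on LN511, to 50.1 and 60.5 FPKM, against 167 and 164 FPKM in Std (log2 difference -1.57, SE 0.16, adjusted p = 0.00133, limma). On gelatin it fell as well, to 64.9 and 87.9 FPKM in 2i, against 129 and 136 FPKM in Std (log2 difference -0.80, SE 0.16, adjusted p = 0.0189, limma). That fall lost its call without gelatin 2i replicate 1 or either gelatin Std library, at a log2 difference of -0.84 to -0.59 and an adjusted p of 0.0705 to 0.0947 (limma). Hdac1, a histone deacetylase, rose by 0.69 on LN511 (SE 0.07, adjusted p = 0.00157, limma) and by 0.52 on gelatin (SE 0.07, adjusted p = 0.00568, limma). No activator and no repressor passed in either coating comparison or in the test of the difference between the medium effects (limma).

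Over the 8 libraries, 6181 genes were ranked by the Pearson r of their log2(FPKM + 1) with that of the Zscan4 sum. The closest were Tars, a threonyl-tRNA synthetase (r = 0.959), Rbmxl2 (r = 0.921), Snrnp70 (r = 0.917), Nfe2l2 (r = 0.911) and Snx4 (r = 0.910). Tars was 101 to 124 FPKM over all libraries. Such a ranking over few libraries is a description without a test. Within the family the same measure was 0.903 for Zscan4c and 0.913 for Zscan4f, which are part of the sum, and 0.330 for Zscan4d. It was 0.749 for Tcstv1, 0.654 for Gm5662, 0.623 for Tmem92 and 0.151 for Tcstv3. The points share libraries, and part of the sharing of reads between copies enters these values.

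Marker sums of other cells moved with the groups in another order than the Zscan4 sum. The fibroblast markers summed to 0.642 to 0.702 FPKM on LN511 in 2i, 0.452 to 0.813 FPKM on gelatin in 2i, 3.34 to 3.37 FPKM on LN511 in Std and 4.36 to 5.57 FPKM on gelatin in Std, so the sum was lower in 2i on both coatings. Thy1 made up most of it, at means of 0.386, 0.356, 2.11 and 4.00 FPKM in the same order. Col1a2 and Dcn were also lower in 2i on both coatings, but Col1a1 on gelatin averaged 0.241 FPKM in 2i and 0.259 FPKM in Std. The trophoblast markers were 15.5 to 16.4 FPKM on LN511 in 2i, 27.4 to 27.7 FPKM on gelatin in 2i, 21.6 to 25.3 FPKM on LN511 in Std and 9.72 to 13.2 FPKM on gelatin in Std. This sum was highest in the 2 groups with the lowest Zscan4 sums, but its genes did not share 1 order. Tfap2c averaged 11.2 FPKM on LN511 in 2i, 19.2 FPKM on gelatin in 2i, 10.6 FPKM on LN511 in Std and 7.99 FPKM on gelatin in Std. Krt7 was highest on LN511 in Std, at a mean of 8.94 FPKM. Cdx2, a defining marker, averaged 1.98 FPKM on LN511 in 2i, 1.01 FPKM on gelatin in 2i, 0.539 FPKM on LN511 in Std and 0.298 FPKM on gelatin in Std, and Elf5 was at 0 in all but 1 library. The primitive endoderm markers summed to 1.01 to 2.44 FPKM on LN511 in 2i, 0.868 to 1.80 FPKM on gelatin in 2i, 4.33 to 4.54 FPKM on LN511 in Std and 1.38 to 2.05 FPKM on gelatin in Std. The part of these markers in the results was not tested. The ES cell markers summed to 2176 to 2389 FPKM on LN511 in 2i, 1955 to 2080 FPKM on gelatin in 2i, 1688 to 1819 FPKM on LN511 in Std and 1526 to 1620 FPKM on gelatin in Std, higher in 2i than in Std on each coating. Utf1 alone of these markers went the other way. It averaged 82.1 FPKM in 2i against 393 FPKM in Std on LN511, and 81.9 against 348 FPKM on gelatin. Nanog averaged 582 FPKM in 2i against 45.8 FPKM in Std on LN511, and 451 against 54.9 FPKM on gelatin.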

How the data were processed

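RNA-seq of 8 libraries, 2 in each of 4 groups of coating and medium, was analysed. The authors deposited FPKM values, 1 column per library, for genes and for transcripts. The build mm10, Cufflinks 2.1.1 and TopHat2 2.1.1 are named per the submitters' processing notes. What each did, its settings, the annotation and the strandedness were not given in the sources used here.

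A gene's value is the sum of its RefSeq transcript rows. Of 32688 such rows, 31786 matched a symbol and 902 did not, and 21844 assembled transcripts were left out. The deposited gene table lists at 0 47.3% of the values that these sums put at 1 FPKM or more, and it served as an alternative only. Family sums add the copies with rows.

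All 8 libraries were fitted with limma 3.58.1 in R 4.3.3 (trended variances, 1 mean per group, n = 2 each) on log2(FPKM + 1), a scale that understates the change of low genes. The filter kept genes that reached 1 FPKM in 2 or more libraries. Genes with a doubtful zero were set aside: 1 replicate of a group at 0 beside 5 FPKM or more, or a whole group at 0 beside a group mean of 5 FPKM or more. Calls are at an adjusted p under 0.05 (Benjamini-Hochberg over all 10278 genes, or the table with family sums in place of their copies). The fit was tested on simulated data, with changes planted only in genes averaging above 5 FPKM. That check does not cover levels as low as those of the members.

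Fragment numbers are estimates: 1 fragment is worth a constant of the library divided by transcript length less 225 bases. Of low values, 51.7% came within 0.05 of a whole number, so no count test was run. Transcript lengths and shared windows come from GENCODE M21, promoters from RefSeq for GRCm38.p6.

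The members and all lists were chosen with earlier results of these data known. Text names all members, the other copies of their families with rows, and up to 3 called genes of each list per comparison by adjusted p. Gm20767 and B020031M17Rik were named after their values were seen. The alternatives were a pseudocount of 0.1, no filter, doubtful zeros kept, quantile normalization, the replicate block, only the libraries compared, the gene table, and each library left out.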

Additional observations from a re-analysis of the deposited data

Results flagged for a closer look

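The Zscan4 family sum was flagged because the effect of 2i against Std medium differed between the 2 coatings by a test of the difference itself. The difference, LN511 minus gelatin, was 2.13 on the log2(FPKM + 1) scale (SE 0.27, adjusted p = 0.0497, limma), and both 2i libraries lay above both Std libraries on LN511 and below both on gelatin. No member alone and no other family passed this test. With 2 libraries in each group, single libraries could not be tested as outliers.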

How the results depend on the processing

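The rise of the Zscan4 sum in 2i on LN511 kept its call under each alternative run for it (log2 difference 1.18 to 1.56). No family sum was run on the gene table. Its fall on gelatin lost the call with the replicate block (-0.76, adjusted p = 0.0652, limma) and with only the 4 libraries compared (-0.76, adjusted p = 0.0551, limma), and was -0.78 to -0.75 with 1 library left out. The difference between the medium effects lost it with a pseudocount of 0.1 (2.30), without a filter (2.13) and with the replicate block (2.13, adjusted p = 0.119, limma), and was 1.94 to 2.32 with 1 library left out. The eIF1A-like sum in 2i on LN511 kept its call in the 6 other settings run and in 4 of the 8 fits with 1 library left out (1.24 to 1.44). Over both coatings it lost it with a pseudocount of 0.1 (0.77), no filter (0.68), doubtful zeros kept (0.68) and the replicate block (0.68), with 0.54 to 0.83 in left-out fits. The Zscan4 sum between coatings in Std passed with quantile normalization (-1.05, adjusted p = 0.0476, limma), as did Tmem92 in 2i on LN511 (1.39, adjusted p = 0.0491, limma).

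For 2i against Std on LN511 the members called numbered 2. They numbered 3 with quantile normalization, 1 with a pseudocount of 0.1, with doubtful zeros kept and with the replicate block, 0 without a filter, with only the 4 libraries compared and with the gene table, and 0 to 1 with 1 library left out. Over both coatings the 1 called became 0 with a pseudocount of 0.1, with the replicate block and with the gene table, and 0 to 1 in left-out fits. The cause was not tested.

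Some directions turned. In the gene table, where Zscan4f is at 0 in 5 of 8 libraries, its log2 difference was 2.00 on gelatin, -0.64 on LN511 and -2.64 for the difference between these. With 1 library left out, signs turned for the Tcstv sum between coatings in Std (-0.034 to 0.44), the Usp17l sum in 2i on LN511 (-0.43 to 0.87), the eIF1A-like sum in 2i on gelatin (-0.26 to 0.31) and between coatings in Std (-0.10 to 0.35), Zscan4d in 2i on gelatin (-1.13 to 0.65) and on LN511 (-0.66 to 1.70), Tcstv3 in 2i on LN511 (-0.53 to 0.29) and Tmem92 in 2i on gelatin (-0.23 to 0.77). None of these was called.

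The replicate numbers do not pair the samples: deviations of same-numbered libraries correlated at -0.02 to 0.02 between groups. Depth limits these values, since most members rest on fewer than 20 fragments in a library, and the split among copies cannot be checked from these files.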
